A study of Homo sapiens with 9 samples.

Results

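Phosphorylation of the translation initiation factor eIF2 is set by a small group of genes, and the mRNA of 8 of them was followed here: the kinase genes EIF2AK1, EIF2AK2, EIF2AK3 and EIF2AK4, the substrate gene EIF2S1, the phosphatase subunit genes PPP1R15A and PPP1R15B, and the co-chaperone gene DNAJC3. They were picked by name, for their roles, from 70116 gene IDs in a table of raw read counts, with earlier results of these data known. All 8 passed the filter on low counts, which left 19408 genes for testing. The cells were U2OS, an established human osteosarcoma line, profiled as poly(A)-selected RNA in 9 libraries. The 3 groups of 3 libraries were PERK knockout cells on palbociclib, wild-type cells on palbociclib and wild-type cells on vehicle. Palbociclib, an inhibitor of the cell cycle kinases CDK4 and CDK6, was given for 4 days. The submitters describe PERK as depleted with CRISPR/Cas9. The sources used here do not give the guide or whether the knockout line is 1 clone. Knockout cells on vehicle were not analysed here, so genotypes were compared on the drug only, and whether the drug response differed by genotype was not tested.

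The alpha subunit of eIF2, encoded by EIF2S1, carries the serine on which the pathway turns. Stress-activated kinases phosphorylate it: HRI (EIF2AK1) responds to low haem and mitochondrial stress, PKR (EIF2AK2) to double-stranded RNA, PERK (EIF2AK3) to unfolded protein in the endoplasmic reticulum (ER) and GCN2 (EIF2AK4) to uncharged tRNA and stalled ribosomes. Phosphorylated eIF2 inhibits its exchange factor eIF2B, so that most translation drops while a few mRNAs, ATF4 among them, are translated more. Protein phosphatase 1 reverses the mark when bound to GADD34 (PPP1R15A), which stress induces, or to CReP (PPP1R15B), which is made constitutively. DNAJC3 encodes P58IPK, an ER co-chaperone described as an inhibitor of PKR and PERK. The mark and the proteins were not measured in these data, which hold mRNA only.

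Total counts ran from 33674039 to 42577874 per library. The labels number the libraries as sets 1 to 3 in every group without saying if a set was its own culture, so p-values reflect the spread among these 9 libraries, which may be technical. Levels are given as CPM, the counts of a gene relative to the library total, scaled by TMM factors. CPM of the cell type markers below were not scaled by these factors. Of the mesenchymal markers, RUNX2 averaged 29.1, 39.0 and 36.4 CPM in PERK knockout cells on palbociclib, wild-type cells on palbociclib and wild-type cells on vehicle, while COL1A2 stood at only 2.83, 2.20 and 1.43 CPM in the same order. The 5 mesenchymal markers summed to 7689 to 9322 CPM in knockout cells on palbociclib, 7550 to 8627 CPM in wild-type cells on palbociclib and 5115 to 5525 CPM in wild-type cells on vehicle. Markers of other cell types were low: the 4 haematopoietic markers summed to at most 1.16 CPM in any library, with CD3E at 0 in all 9, the 3 endothelial markers to at most 4.13 CPM and the 4 epithelial markers to at most 11.6 CPM.

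EIF2AK3, the targeted gene, checks the labels (ENSG00000172071.15, chromosome 2, 88556741 to 88627576, minus strand; positions here are GRCh38 from GENCODE release 29). It had 19.7, 18.7 and 17.8 CPM in PERK knockout cells on palbociclib, 35.7, 36.8 and 31.8 CPM in wild-type cells on palbociclib, and 31.7, 34.8 and 32.8 CPM in wild-type cells on vehicle. Every knockout library lay below every wild-type library, and the wild-type groups overlapped. On the drug, knockout cells held 53.9% of the EIF2AK3 mRNA of wild-type cells (log2 fold change -0.89 with an SE of 0.068, 95% interval -1.03 to -0.75, edgeR quasi-likelihood adjusted p = 5.98e-09). The 50 other tested genes within 5 Mb on either side had a median log2 fold change of -0.09 in the same comparison. Against wild-type cells on vehicle the knockout level was 56.6% (log2 fold change -0.82 ± 0.068, edgeR adjusted p = 5.05e-09). In wild-type cells palbociclib left EIF2AK3 short of the threshold, with an interval of -0.07 to 0.21 on the log2 scale (edgeR adjusted p = 0.417). In bulk RNA of this kind, fewer cells with the mRNA and less mRNA per cell cannot be told apart. The antisense gene AC062029.1 overlaps EIF2AK3 and averaged 2.59 CPM in knockout cells on palbociclib, 3.02 CPM in wild-type cells on palbociclib and 3.27 CPM in wild-type cells on vehicle. How the counting treated strand is not stated in the sources used here, and reads of such a pair may be divided in either way.

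EIF2AK1, encoding HRI, was higher in the knockout (ENSG00000086232.13, chromosome 7, 6022244 to 6059230, minus strand). It had 559, 561 and 548 CPM in PERK knockout cells on palbociclib, 465, 467 and 446 CPM in wild-type cells on palbociclib, and 444, 461 and 452 CPM in wild-type cells on vehicle. The knockout libraries stood above all 6 wild-type libraries, which overlapped between drug and vehicle. The level was 121% of wild type on the drug (log2 fold change 0.28 ± 0.045 SE, 95% interval 0.18 to 0.37, edgeR adjusted p = 9.79e-05) and 123% of wild type on vehicle (log2 fold change 0.30, edgeR adjusted p = 1.36e-05). Its genomic neighbours shifted the same way: the 82 other tested genes within 5 Mb had a median log2 fold change of 0.21 in knockout against wild type on palbociclib, with 42 called higher and 2 lower. EIF2AK1 exceeded that median by 0.07, and the part of the region in the result was not tested. The drug alone gave a log2 fold change of 0.02 in wild-type cells, with an interval of -0.07 to 0.12 (edgeR adjusted p = 0.729). AIMP2, on the opposite strand and overlapping EIF2AK1, averaged 72.7 CPM in knockout cells on palbociclib, 58.0 CPM in wild-type cells on palbociclib and 72.1 CPM in wild-type cells on vehicle.

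EIF2AK4, encoding GCN2, gave smaller differences (ENSG00000128829.12, chromosome 15, 39934146 to 40035591, plus strand). It had 166, 169 and 159 CPM in PERK knockout cells on palbociclib, 158, 154 and 144 CPM in wild-type cells on palbociclib, and 143, 145 and 125 CPM in wild-type cells on vehicle. The knockout libraries lay just above the wild-type libraries on the drug, and the wild-type groups overlapped. Knockout against wild type on palbociclib did not pass the threshold (log2 fold change 0.11 ± 0.056 SE, interval -0.01 to 0.23, edgeR adjusted p = 0.15). With the set number as a block it passed, at an edgeR adjusted p = 0.0237, and without wild-type palbociclib library 3 the value was 0.06 (adjusted p = 0.509). The 104 other tested genes within 5 Mb had a median of 0.18 in that comparison, above the value of EIF2AK4 itself. Palbociclib raised EIF2AK4 in wild-type cells by 0.14 ± 0.057 on the log2 scale (edgeR adjusted p = 0.0462). That call was lost when any 1 knockout library was left out (these enter through the shared estimate of the spread), and without wild-type palbociclib library 1 or 2 or vehicle library 3, at adjusted p-values of 0.0502 to 0.271. Without vehicle library 3 the value was 0.08. Drug-treated knockout cells against vehicle-treated wild-type cells gave 0.26 ± 0.056 (edgeR adjusted p = 0.000742).

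EIF2AK2, encoding PKR, was lower in both drug-treated groups than in wild-type cells on vehicle (ENSG00000055332.19, chromosome 2, 37099210 to 37157065, minus strand). It had 93.2, 91.3 and 90.4 CPM in PERK knockout cells on palbociclib, 93.7, 94.5 and 90.6 CPM in wild-type cells on palbociclib, and 110, 116 and 113 CPM in wild-type cells on vehicle. All 6 drug-treated libraries lay below the 3 vehicle libraries, and the drug-treated groups overlapped. In wild-type cells EIF2AK2 fell to 82.2% of the vehicle level (log2 fold change -0.28 ± 0.046 SE, edgeR adjusted p = 4.75e-05), where the 44 other tested genes within 5 Mb had a median of -0.10. Knockout against wild type on palbociclib gave -0.02, with an interval of -0.12 to 0.08 (edgeR adjusted p = 0.789). The overlapping gene GPATCH11, on the opposite strand, averaged 28.6 CPM in knockout cells on palbociclib, 29.7 CPM in wild-type cells on palbociclib and 37.4 CPM in wild-type cells on vehicle. EIF2AK2 is an interferon-stimulated gene, and its RefSeq promoter holds the letters GAAANNGAAA of an interferon-stimulated response element at the start site. The stretch from 20 bases before to 10 after that start (chr2:37156971-37157000, GRCh38.p14, minus strand) shows the match in capitals. Over the full promoter window, from 250 bases before to 50 after the start, 3.57% of 35116 promoters had a match on either strand.
EIF2AK2 promoter: gcggagtccaagggGAAAACGAAActgaga
Among 7 tested genes of 8 on a list of interferon-stimulated companions, palbociclib raised 2 and lowered 1 in wild-type cells, where 21.3% of all tested genes were higher and 22.3% lower. IFIT3 averaged 3.36 CPM in wild-type cells on palbociclib and 2.03 CPM in wild-type cells on vehicle (log2 fold change 0.73). STAT2, a subunit of the interferon-activated transcription factor, averaged 92.1 and 64.3 CPM in those groups (0.52), and IFIT1 averaged 8.91 and 13.2 CPM (-0.57). None of the 7 passed the edgeR threshold between knockout and wild-type cells on palbociclib, and 1 had an unadjusted p under 0.05. DESeq2 and limma-voom also called 0 of the 7, while edgeR called 1 with the set as a block and 1 without wild-type palbociclib library 3. Against wild-type cells on vehicle 4 of the 7 were higher in knockout cells on palbociclib, where 25.7% of all tested genes were, and ISG15, 1 of these, lost its call without knockout library 2 (adjusted p = 0.113) or vehicle library 2 (0.0879). IFIT3 (0.96) and STAT2 (0.49) were among the 4, as was OAS1, a sensor of double-stranded RNA (0.93, with 0.88 CPM in these knockout cells and 0.47 CPM in the vehicle group), which lost its call with DESeq2 and without knockout library 1 or 3 or vehicle library 1 or 2 (adjusted p = 0.0719 to 0.144). IFIT1 went the other way, short of the threshold (-0.32, edgeR adjusted p = 0.0804). It passed as lower with limma-voom (0.0476), with no low-count filter (0.00381) and with the set as a block (0.00518). Leaving out knockout library 1 gave -0.54 (adjusted p = 0.000503).

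**Figure D1:**
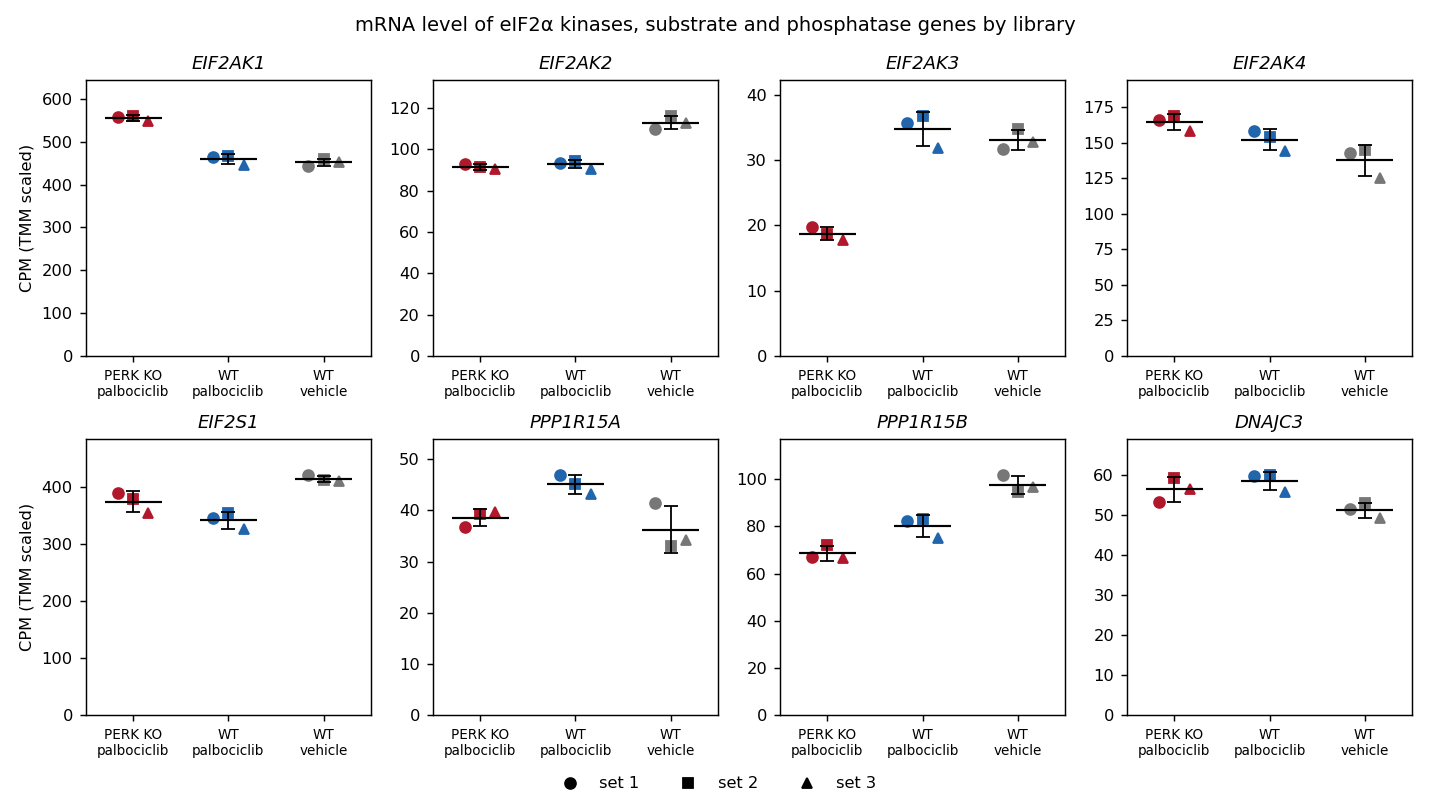
Level of each of the 8 genes in CPM (vertical axes, each from 0) in PERK knockout cells on palbociclib, wild-type cells on palbociclib and wild-type cells on vehicle. Points are libraries with the symbol giving the set, lines are means and bars are SD of 3 libraries; EIF2AK3 sits at 17.8 to 19.7 CPM in the knockout and at 31.7 to 36.8 CPM in wild-type cells, while EIF2AK1 sits at 548 to 561 CPM in the knockout and at 444 to 467 CPM in wild-type cells.

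Levels of different genes were compared per kilobase of annotated exon. HRI mRNA was the most abundant of the 8 in each group and PERK mRNA the least. EIF2AK1 averaged 100.1 CPM per kilobase in PERK knockout cells on palbociclib, 82.7 in wild-type cells on palbociclib and 81.5 in wild-type cells on vehicle. EIF2S1 followed at 66.4, 60.6 and 73.4 CPM per kilobase in the same order of groups. EIF2AK3 averaged 3.45 CPM per kilobase in knockout cells on palbociclib, 6.40 in wild-type cells on palbociclib and 6.09 in wild-type cells on vehicle. The other 5 genes lay between 8.52 and 18.7 CPM per kilobase. In knockout cells EIF2AK4 (13.8), PPP1R15B (13.1) and PPP1R15A (12.5) overlapped as neighbours in the order. In wild-type cells on palbociclib PPP1R15B (15.4) overlapped PPP1R15A (14.6), and in wild-type cells on vehicle PPP1R15A (11.7), EIF2AK4 (11.5) and EIF2AK2 (10.5) overlapped as neighbours. The top pair and the lowest gene kept their places in all 3 groups with the length of the longest transcript or of the transcript with the longest coding sequence. With those lengths EIF2AK4 came next after the top pair, at 29.9 CPM per kilobase in knockout cells on palbociclib, 27.7 in wild-type cells on palbociclib and 25.1 in wild-type cells on vehicle.

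Taking the 4 kinase mRNAs as a whole, per kilobase, PERK made up a small share. EIF2AK3 was 2.86, 2.71 and 2.64% of kinase mRNA in PERK knockout cells on palbociclib, 5.86, 6.02 and 5.48% in wild-type cells on palbociclib, and 5.41, 5.70 and 5.56% in wild-type cells on vehicle. The knockout libraries lay apart from both wild-type groups, which overlapped. The share was lower in the knockout than in wild-type cells on the drug, by a difference of -3.04 percentage points (two-sided exact permutation p = 0.1, the smallest that 3 against 3 libraries allow). Palbociclib against vehicle in wild-type cells differed by 0.229 points (exact permutation p = 0.3), which became 0.113 without wild-type palbociclib library 2 and 0.381 without library 3 of that group. The summed level of the 4 kinases was 125.9 ± 1.97 CPM per kilobase in knockout cells on palbociclib, 110.5 ± 3.29 in wild-type cells on palbociclib and 109.6 ± 2.45 in wild-type cells on vehicle (SD, n = 3). EIF2AK1 formed 79.6 ± 0.244% of it in knockout cells on palbociclib, 74.9 ± 0.390% in wild-type cells on palbociclib and 74.3 ± 0.649% in wild-type cells on vehicle. EIF2AK2 formed 6.77 ± 0.0819%, 7.82 ± 0.0713% and 9.59 ± 0.122% in the same order. EIF2AK4 formed 10.9 ± 0.199%, 11.5 ± 0.252% and 10.5 ± 0.744%. By the length of the longest transcript, EIF2AK1 formed 74.3, 69.8 and 70.0% and EIF2AK4 17.9, 18.8 and 17.3%. The 82 other tested genes within 5 Mb of EIF2AK1 had a median log2 fold change of 0.21 in knockout against wild type on palbociclib. The part of that region in the summed level was not tested.

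**Figure D2:**
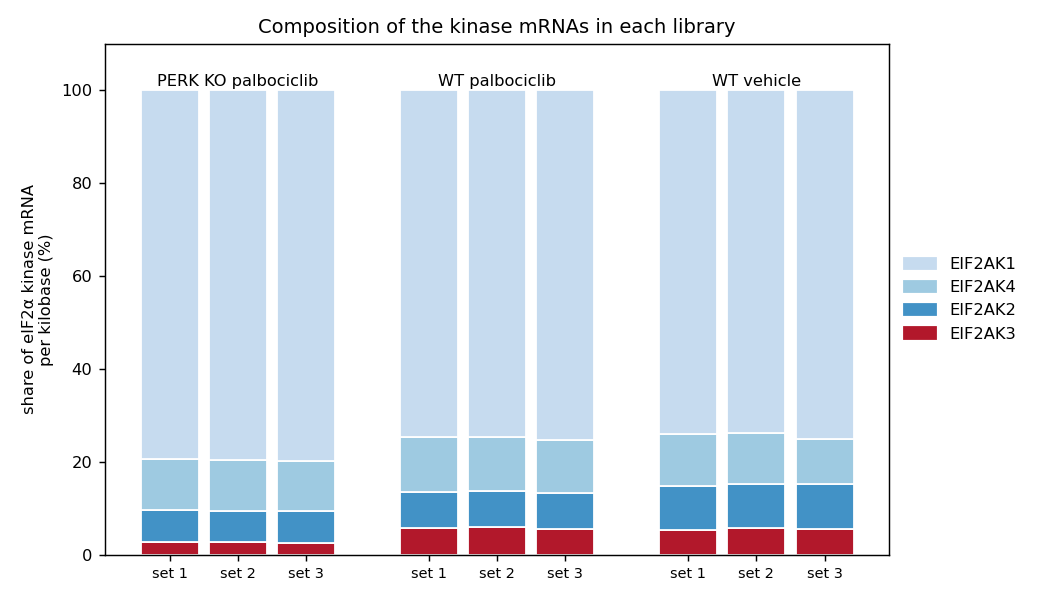
Share of each kinase gene in the summed kinase mRNA per kilobase (vertical axis, %) for each library, with PERK knockout cells on palbociclib, wild-type cells on palbociclib and wild-type cells on vehicle from left to right. EIF2AK3, in red at the base, takes 2.64 to 2.86% of the bar in the knockout and 5.41 to 6.02% in wild-type cells, and EIF2AK1 takes most of every bar.

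EIF2S1, encoding the phosphorylated subunit, fell with palbociclib in wild-type cells (ENSG00000134001.15, chromosome 14, 67359997 to 67386516, plus strand). The target serine, number 51 when the first methionine is not counted, is codon 52 in exon 2 of the annotated transcript. The coding stretch around it (chr14:67364897-67364947, GRCh38, plus strand) is shown with that TCC codon in capitals, since it is the site that every kinase and phosphatase above acts on.
EIF2S1 coding stretch: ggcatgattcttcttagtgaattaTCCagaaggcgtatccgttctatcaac
EIF2S1 had 390, 380 and 355 CPM in PERK knockout cells on palbociclib, 346, 355 and 326 CPM in wild-type cells on palbociclib, and 421, 412 and 411 CPM in wild-type cells on vehicle. The vehicle libraries were the highest, and the drug-treated groups met without overlapping. In wild-type cells palbociclib lowered EIF2S1 to 82.5% of the vehicle level (log2 fold change -0.28 ± 0.050 SE, edgeR adjusted p = 0.000133), while the 81 other tested genes within 5 Mb had a median of 0.01. Knockout against wild type on palbociclib gave 0.13 ± 0.050, just short of the threshold (interval 0.03 to 0.24, edgeR adjusted p = 0.0536). With the set number as a block it passed (edgeR adjusted p = 0.00515), as it did with limma-voom (0.0423), with upper quartile factors (0.0267), without knockout library 3 (0.0315) and without vehicle library 3 (0.0454). Without wild-type palbociclib library 3 the value was 0.08 (adjusted p = 0.28), and with DESeq2 the adjusted p was 0.119. Its neighbours had a median of 0.17 in that comparison, with 25 called higher and 2 lower, and their part in the result was not tested. Against wild-type cells on vehicle EIF2S1 was lower in knockout cells on palbociclib (log2 fold change -0.15 ± 0.049, edgeR adjusted p = 0.0186), a call lost without knockout library 3 (-0.11, adjusted p = 0.13). ATP6V1D, which overlaps EIF2S1 on the opposite strand, averaged 128.8 CPM in knockout cells on palbociclib, 126.9 CPM in wild-type cells on palbociclib and 102.3 CPM in wild-type cells on vehicle.

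The phosphatase subunit genes moved in opposite directions with palbociclib in wild-type cells, and both were lower in the knockout than in wild-type cells on the drug. PPP1R15A, the stress-inducible GADD34 gene, is on chromosome 19, 48872392 to 48876057, plus strand (ENSG00000087074.9). PPP1R15B, the CReP gene, is on chromosome 1, 204403387 to 204411791, minus strand (ENSG00000158615.10). Their upstream stretches are shown because members of the ATF and C/EBP families bind sites of the kind searched for: the cAMP response element TGACGTCA, found in 1.85% of 35116 promoters, and the C/EBP-ATF composite letters TGATGNAA, found in 3.62% on either strand. Promoters are from RefSeq, with 250 bases before to 50 after the start, and 7 of the 8 genes matched an entry by symbol. The PPP1R15A stretch runs from 250 to 30 bases before the RefSeq start (chr19:48872171-48872391, GRCh38.p14, plus strand) and the PPP1R15B stretch covers the 250 bases before it (chr1:204411818-204412067, GRCh38.p14, minus strand). Capitals mark the matches, which begin at position -58 from the start in PPP1R15A and -227 in PPP1R15B.
PPP1R15A upstream: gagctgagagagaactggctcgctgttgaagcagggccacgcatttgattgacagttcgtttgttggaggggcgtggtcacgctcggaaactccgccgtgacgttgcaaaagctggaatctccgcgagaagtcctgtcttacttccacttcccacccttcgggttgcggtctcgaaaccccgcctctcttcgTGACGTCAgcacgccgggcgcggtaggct
PPP1R15B upstream: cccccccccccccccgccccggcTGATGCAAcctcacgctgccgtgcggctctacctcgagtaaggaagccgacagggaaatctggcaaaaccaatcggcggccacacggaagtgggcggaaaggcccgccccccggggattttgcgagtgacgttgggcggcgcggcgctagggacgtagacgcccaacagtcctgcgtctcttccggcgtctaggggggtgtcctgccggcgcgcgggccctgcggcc
No member promoter matched the ER stress response element (CCAAT and CCACG set 9 bases apart, either strand, in 0.0769% of promoters). EIF2S1 was the member whose promoter matched the E2F letters TTTNNCGC, at positions -172 and -132 from its start, where 6.89% of promoters had a match on either strand. These matches describe letters only.

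PPP1R15A had 36.8, 39.2 and 39.7 CPM in PERK knockout cells on palbociclib, 46.8, 45.2 and 43.2 CPM in wild-type cells on palbociclib, and 41.4, 33.0 and 34.2 CPM in wild-type cells on vehicle. The 3 highest values were those of wild-type cells on palbociclib, and vehicle library 1 stood above the other vehicle libraries. Palbociclib raised it in wild-type cells to 125% of vehicle (log2 fold change 0.32 ± 0.072 SE, edgeR adjusted p = 0.00137). The knockout level was 85.6% of wild type under treatment (log2 fold change -0.22 ± 0.071, edgeR adjusted p = 0.0239). That call was lost without knockout library 1 or 2 or wild-type palbociclib library 1 or 2, at adjusted p-values of 0.0544 to 0.101. Knockout cells on palbociclib and wild-type cells on vehicle overlapped, with a log2 fold change of 0.09 (interval -0.06 to 0.24, edgeR adjusted p = 0.3), which passed at 0.20 without vehicle library 1 (adjusted p = 0.0113).

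PPP1R15B had 66.9, 72.2 and 66.8 CPM in PERK knockout cells on palbociclib, 82.4, 83.3 and 75.1 CPM in wild-type cells on palbociclib, and 102, 94.5 and 96.5 CPM in wild-type cells on vehicle. The 3 groups did not overlap. Palbociclib lowered it in wild-type cells to 82.3% of vehicle (log2 fold change -0.28 ± 0.053 SE, edgeR adjusted p = 0.000236). The knockout level was 85.5% of wild type under treatment (log2 fold change -0.23 ± 0.054, edgeR adjusted p = 0.00335). Against wild-type cells on vehicle, knockout cells on palbociclib were at 70.3% (log2 fold change -0.51 ± 0.054, edgeR adjusted p = 1.34e-07). These comparisons share libraries, so their values are set side by side and are not independent. Other tested genes within 5 Mb of PPP1R15B had medians of 0.04, -0.01 and 0.02 in the 3 comparisons, and those near PPP1R15A -0.02, -0.01 and -0.03.

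Within a library the ratio of the phosphatase subunit mRNAs needs no scaling between libraries. PPP1R15A counts were 54.9, 54.3 and 59.5% of PPP1R15B counts in PERK knockout cells on palbociclib, 56.8, 54.2 and 57.6% in wild-type cells on palbociclib, and 40.7, 34.9 and 35.4% in wild-type cells on vehicle. The drug-treated groups overlapped and the vehicle libraries lay below them all. The log2 ratio was 0.61 higher in wild-type cells on palbociclib than on vehicle (two-sided exact permutation p = 0.1, the smallest possible with the sets unpaired). It was also 0.61 higher in knockout cells on palbociclib than in wild-type cells on vehicle (exact permutation p = 0.1). Knockout and wild-type cells on palbociclib had the same mean log2 ratio to 2 decimals, -0.83 ± 0.072 in the knockout and -0.83 ± 0.046 in wild type (SD, n = 3; exact permutation p = 1), with a difference of -0.04 to 0.03 when each library was left out. A ratio does not show that either mRNA stayed the same.

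**Figure D3:**
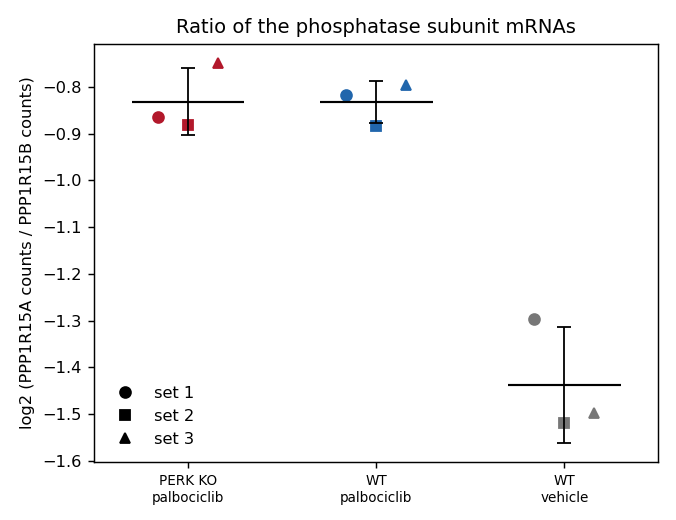
Log2 ratio of PPP1R15A to PPP1R15B counts (vertical axis) by group, with PERK knockout cells on palbociclib, wild-type cells on palbociclib and wild-type cells on vehicle from left to right. Points are libraries, lines are means and bars are SD; the mean is -0.83 in both drug-treated groups and -1.44 in vehicle-treated cells.

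DNAJC3, encoding the co-chaperone P58IPK, rose with palbociclib in wild-type cells (ENSG00000102580.15, chromosome 13, 95677139 to 95794989, plus strand). It had 53.2, 59.2 and 56.5 CPM in PERK knockout cells on palbociclib, 59.6, 59.8 and 55.7 CPM in wild-type cells on palbociclib, and 51.5, 52.8 and 49.2 CPM in wild-type cells on vehicle. The vehicle libraries were the lowest, knockout library 1 stood just above them, and the drug-treated groups overlapped. The drug gave a log2 fold change of 0.19 ± 0.054 SE in wild-type cells (edgeR adjusted p = 0.00789). Knockout against wild type on palbociclib gave -0.05, with an interval of -0.17 to 0.06 (edgeR adjusted p = 0.517). Drug-treated knockout cells against vehicle-treated wild-type cells gave 0.14 beside a median of 0.11 for the 26 other tested genes within 5 Mb (edgeR adjusted p = 0.0413), which missed the threshold with DESeq2 (0.0867), with no low-count filter (0.0671) and without knockout library 2 or 3, wild-type palbociclib library 1 or 2, or vehicle library 1 or 3 (0.0530 to 0.196).

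Counted together, 3 of the 8 genes were called higher on palbociclib than on vehicle in wild-type cells (EIF2AK4, PPP1R15A and DNAJC3), where 21.3% of all tested genes were. Another 3 were called lower (EIF2AK2, EIF2S1 and PPP1R15B), where 22.3% of all tested genes were, and EIF2AK1 and EIF2AK3 were not called. Knockout against wild type on palbociclib gave 1 higher call (EIF2AK1) against 14.9% of all genes, and 3 lower calls (EIF2AK3, PPP1R15A and PPP1R15B) against 13.0%. With upper quartile factors the split was 2 higher and 3 lower. Drug-treated knockout cells against vehicle-treated wild-type cells gave 3 higher calls against 25.7% and 4 lower calls against 26.0%. The median log2 fold change of the 8 genes was 0.05, -0.04 and -0.03 in the 3 comparisons, beside -0.02, 0.01 and -0.01 over all genes.

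**Figure D4:**
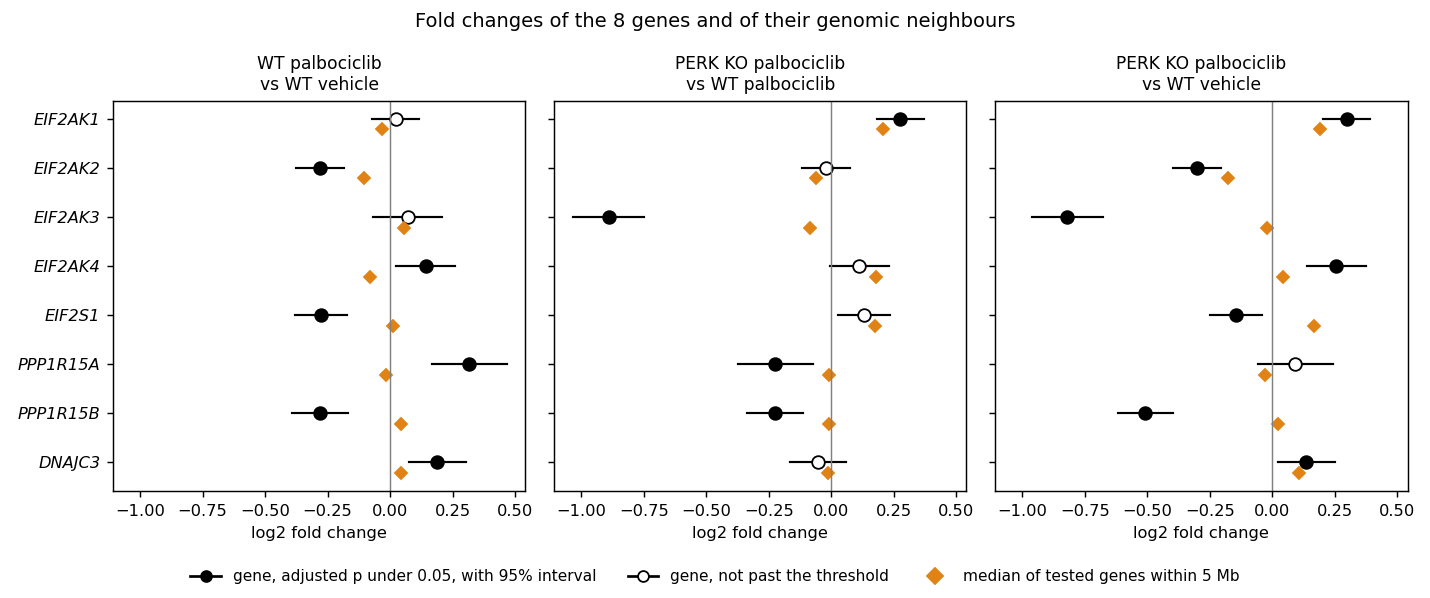
Log2 fold change (horizontal axes) of each gene with its 95% interval in the 3 comparisons, filled where the edgeR adjusted p was under 0.05, and in orange the median of the other tested genes within 5 Mb. EIF2AK3 lies at -0.89 in knockout against wild type on palbociclib with neighbours at -0.09, whereas EIF2AK1, EIF2AK4 and EIF2S1 lie at 0.28, 0.11 and 0.13 with neighbours at 0.21, 0.18 and 0.17.

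The other genes of the pathway were counted on 7 lists with 52 genes, of which 50 were tested. These lists, too, were chosen with earlier results of these data known. In wild-type cells 6 of the 50 were higher on palbociclib than on vehicle and 22 were lower, beside 21.3% and 22.3% of all tested genes. Without wild-type palbociclib library 3 the split was 9 higher and 14 lower, with DESeq2 it was 7 and 16, and with only the 6 libraries compared 7 and 15. Between knockout and wild-type cells on palbociclib 11 were higher and 14 lower, beside 14.9% and 13.0% of all tested genes. Of 11 genes for eIF2, its exchange factor eIF2B and their partners, 0 rose and 7 fell with palbociclib in wild-type cells, and the median of the list was -0.13 on the log2 scale. The calls of BZW1, CDC123 and EIF2B5 were lost with DESeq2 (adjusted p = 0.0886, 0.0835 and 0.0686), which left 4. The largest called falls were in EIF2B3, an eIF2B subunit, with 36.7 CPM on palbociclib and 49.6 CPM on vehicle (-0.44), in EIF5, the activator of GTP hydrolysis by eIF2 (206 and 243 CPM, -0.24), and in EIF2B1, a regulatory eIF2B subunit (70.2 and 81.1 CPM, -0.21). The catalytic subunits of protein phosphatase 1 also fell, 3 of 3. PPP1CC averaged 255 CPM on palbociclib and 314 CPM on vehicle (-0.30), PPP1CB averaged 237 and 285 CPM (-0.27), and PPP1CA averaged 201 and 223 CPM (-0.15), a call lost without wild-type palbociclib library 1 or 3 (adjusted p = 0.0655 and 0.0567) and with only the 6 libraries compared (0.0596). All 5 genes for initiation with little eIF2 were called lower in the main edgeR test, by small amounts, led by DENR (-0.24), EIF2A (-0.20) and MCTS1 (-0.16). DENR and EIF2A kept their calls under each alternative tried, while MCTS1, EIF5B and EIF2D lost theirs with DESeq2 (adjusted p = 0.1, 0.0752 and 0.1), with no low-count filter, with only the 6 libraries compared and without wild-type palbociclib library 2 or 3, among others. Of 3 tested genes on a list of other ER stress sensors 1 rose and 0 fell. It was ATF6 (0.20, edgeR adjusted p = 0.00208), with neighbours within 5 Mb at a median of 0.10. Among 15 regulators of the kinases 2 rose and 5 fell. HSP90AA1, a chaperone that HRI needs, averaged 1110 CPM on palbociclib and 1669 CPM on vehicle (-0.59), HSPA8 averaged 1612 and 1999 CPM (-0.31), and PRKRA, an activator of PKR, averaged 44.1 and 54.1 CPM (-0.29).

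In the knockout against wild type on palbociclib, the list downstream of phosphorylated eIF2 gave 0 higher and 5 lower of 6, where 14.9% of all tested genes were higher and 13.0% lower, with a median log2 fold change of -0.43. ATF4, the transcription factor of the pathway, averaged 547 CPM in knockout and 617 CPM in wild-type cells (-0.17, edgeR adjusted p = 0.00735). TRIB3, a pseudokinase that ATF4 and CHOP induce, averaged 14.4 and 30.9 CPM (-1.10), but the 69 other tested genes within 5 Mb also had a median of -0.57. CHAC1, an enzyme that degrades glutathione, averaged 9.58 and 20.2 CPM (-1.07), with neighbours at a median of 0.18. ASNS, asparagine synthetase, averaged 2.90 and 4.20 CPM (-0.53), a call lost without knockout library 2 (adjusted p = 0.0625). DDIT3, encoding CHOP, averaged 4.66 and 5.88 CPM, a difference that missed the threshold (-0.34, edgeR adjusted p = 0.0838) and passed it with the set as a block (0.0128). DDIT3 also passed with no low-count filter (0.0370) and without wild-type palbociclib library 1 (-0.45, adjusted p = 0.0372). With palbociclib alone, 1 gene of this list rose in wild-type cells, CHAC1 (0.41), and 1 fell, ATF5 (-0.25), a call lost without wild-type palbociclib library 3 (adjusted p = 0.0521).

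On a list of other ER stress sensors together with XBP1, 2 of 3 tested genes were lower in the knockout on palbociclib, where 13.0% of all tested genes were. ERN1, encoding the sensor IRE1, was not called (-0.04, edgeR adjusted p = 0.724). ATF6, an ER-anchored transcription factor, averaged 57.5 CPM in knockout and 113 CPM in wild-type cells on palbociclib (-0.97), beside a median of -0.60 over 80 other tested genes within 5 Mb. XBP1, the mRNA that the sensor IRE1 splices, averaged 110 and 131 CPM (-0.25), with neighbours at 0.04. HSPA5, the ER chaperone that holds PERK inactive, averaged 769 and 903 CPM (-0.23). Among regulators of the kinases 6 of 15 were higher and 2 lower, beside 14.9% and 13.0% of all tested genes. The higher call of NCK1 was lost with DESeq2 (adjusted p = 0.0771) and with no low-count filter (0.0895). It was also lost without knockout library 1 or 3 or any 1 wild-type palbociclib library (0.0561 to 0.112). RPLP1, a protein of the ribosomal stalk that activates GCN2, averaged 2106 and 1727 CPM (0.29). IMPACT, an inhibitor of GCN2, averaged 24.2 and 20.2 CPM (0.26), with neighbours at 0.20. DELE1, which carries mitochondrial stress to HRI, averaged 60.4 and 51.2 CPM (0.24), with neighbours at 0.30. The part of these regions in the results was not tested.

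Within eIF2 and eIF2B 3 of 11 genes were higher and 3 lower in the knockout on palbociclib, beside 14.9% and 13.0% of all tested genes. The higher call of EIF2S3 was lost with DESeq2 (adjusted p = 0.0768), with DESeq2 size factors in edgeR (0.0856) and with no low-count filter (0.2). It was also lost without any 1 knockout or wild-type palbociclib library and without vehicle library 2 (0.0588 to 0.124). The lower call of BZW1 was lost without knockout library 2 or 3 or wild-type palbociclib library 1 or 2 (0.0559 to 0.185). EIF2B2, the beta subunit of eIF2B, averaged 76.4 CPM in knockout and 52.7 CPM in wild-type cells (0.54), with neighbours at 0.20. EIF2S2, the beta subunit of eIF2, averaged 176 and 227 CPM (-0.37), with neighbours at -0.21. CDC123, an assembly factor of eIF2, averaged 73.4 and 92.7 CPM (-0.34), with neighbours at -0.24. PPP1CC averaged 186 and 255 CPM (-0.46), with neighbours at -0.09, while PPP1CA and PPP1CB were not called. For initiation with little eIF2, EIF2D (0.24) and EIF2A (0.22) were higher and DENR (-0.16) was lower, the last call being lost without knockout library 2 or 3 or wild-type palbociclib library 1 or 2 (adjusted p = 0.0529 to 0.0958).

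Against wild-type cells on vehicle, knockout cells on palbociclib had 10 of the 50 genes higher and 25 lower, beside 25.7% and 26.0% of all tested genes. The eIF2 and eIF2B list gave 1 higher and 7 lower of 11, beside the same shares, led by EIF2B3 (-0.50), EIF2B2 (0.49) and CDC123 (-0.47). Their neighbours within 5 Mb had medians of -0.09, 0.25 and -0.34 in that order. The lower call of EIF2B5 was lost with DESeq2 (adjusted p = 0.0893) and without any 1 library (0.0601 to 0.121). PPP1CC was at 186 CPM in knockout cells on palbociclib and 314 CPM in wild-type cells on vehicle (-0.76), beside PPP1CB (-0.32) and PPP1CA (-0.17). Of the downstream list 5 of 6 were lower, with TRIB3 at -1.17, ASNS at -0.67 and CHAC1 at -0.66, and neighbours at -0.57, 0.01 and 0.10 in that order. DDIT3 was lower as well (-0.55), and ATF4 was not called (-0.10, edgeR adjusted p = 0.0746), but passed with the block (0.0167) and with limma-voom (0.0490). Among the regulators IMPACT was higher (0.53), and PRKRA (-0.48) and HSP90AA1 (-0.46) were lower, with neighbours at 0.29, -0.01 and 0.09 in that order. The part of these regions in the results was not tested.

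**Figure D5:**
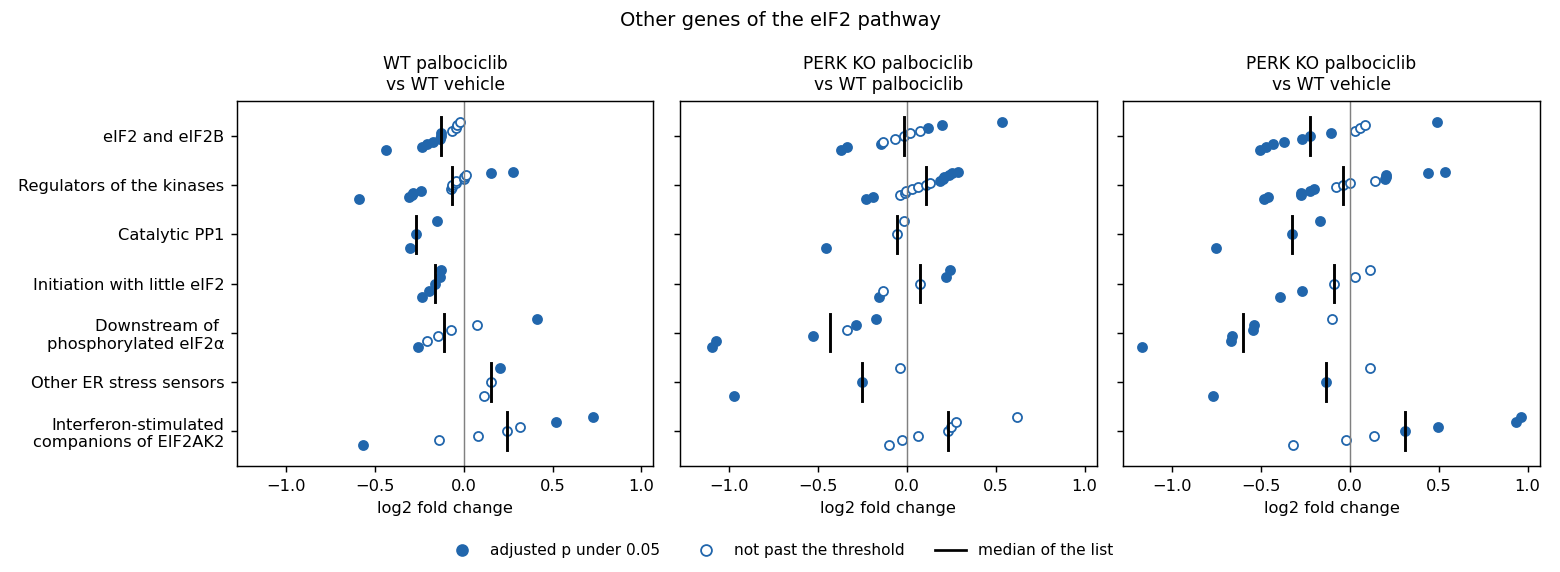
Log2 fold change (horizontal axes) of the 50 tested pathway genes by list in the 3 comparisons, filled where the edgeR adjusted p was under 0.05, with a bar at the median of each list. The medians of the downstream list are -0.11 in wild-type cells on palbociclib against vehicle, -0.43 in knockout against wild type on palbociclib and -0.60 in drug-treated knockout cells against vehicle-treated wild-type cells.

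Patterns most like those of the 2 genes that changed by at least 0.5 on the log2 scale were found over the 9 libraries, as the root mean square difference of centred log2 CPM among 10703 genes with a mean of at least 5 CPM. Closest to EIF2AK3 was PMAIP1, encoding the BH3 protein NOXA, at 0.0457, with 29.5 CPM in knockout cells on palbociclib, 54.8 CPM in wild-type cells on palbociclib and 52.4 CPM in wild-type cells on vehicle. ATF6 (0.0709) and MPZL1 (0.0737) came next, where the median candidate stood at 0.426. PMAIP1 lies on chromosome 18 and the other two on chromosome 1, in windows whose other genes had medians of -0.39, -0.60 and -0.61 in knockout against wild type on palbociclib. Closest to PPP1R15B were PLAGL2 (0.0253), POLR2C (0.0275) and ARF6 (0.0377), where the median candidate stood at 0.240. Other genes in their windows had medians of -0.22, 0.01 and -0.03 in knockout against wild type on palbociclib, in that order. POLR2C, a subunit of RNA polymerase II, averaged 68.1 CPM in knockout cells on palbociclib, 77.4 CPM in wild-type cells on palbociclib and 93.3 CPM in wild-type cells on vehicle. These are descriptions over libraries that share groups and sets.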

How the data were processed

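The deposited table holds raw read counts for each gene in 1 column per library, not normalized, per the labels. RNA was column purified, captured on poly-T beads and primed with random hexamers, per the labels' protocols. The submitters' processing notes name STAR 2.7.9a, DESeq2, Trim Galore, FastQC and CASAVA, and the build hg38. The sources used here do not give the counter, its strand setting or the annotation release. Totals were 33674039 to 42577874 counts per library.

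The main test was the quasi-likelihood F test of edgeR 4.0.16 (R 4.3.3, with limma 3.58.1, DESeq2 1.42.0 and Python 3.11.15 beside it), with robust fitting, TMM factors and the default low-count filter. All 9 libraries entered 1 model of 3 groups, with Benjamini-Hochberg adjustment over 19408 genes and calls at 0.05. The fit was tested on simulated data. The biological coefficient of variation was 5.99%. Shares and ratios were compared with exact permutation tests. Levels between genes are CPM per kilobase of the union of annotated exons. Positions and neighbours come from GENCODE release 29.

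The members and lists were chosen with earlier results of these data known. Named genes were all 8 members, the called genes with the largest change (up to 3 per list and comparison), ATF4 and DDIT3, and the 3 genes most alike in pattern to a member changed by at least 0.5 on the log2 scale. HSPA5, in knockout against wild type on palbociclib, the overlapping genes and genes named only for a lost call were chosen after their values were seen. For 1 gene counted on the lists, values are not reported here.

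To see whether set numbers pair the libraries, each library's deviations from its group mean were correlated over 12932 genes. The 9 pairs of libraries with the same set number correlated at 0.176 to 0.541, and pairs with different numbers at -0.401 to 0.0714. Pairing was accepted on these correlations, since no label states it. The main model and the exact permutation tests leave the pairing out. With 3 libraries per group, a paired exact test could not give a p under 0.25. Alternatives were other size factors, DESeq2, limma-voom, no filter, only the 6 libraries compared, the set as a block, leaving out each library, other gene lengths (1 of them chosen after seeing the data) and subtraction of the neighbours' median.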

Additional observations from a re-analysis of the deposited data

How the results depend on the processing

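The total counts of called members and of called pathway genes, both directions together, stayed within 1.5 times their main value under every alternative tried, but without wild-type palbociclib library 3 the pathway genes lower on palbociclib than on vehicle numbered 14 in place of 22. Leaving out each library gave 5 to 6 members called for palbociclib against vehicle in wild-type cells, 3 to 5 for knockout against wild type on palbociclib and 5 to 7 for drug-treated knockout cells against vehicle-treated wild-type cells. The pathway counts ran over 23 to 28, 21 to 26 and 30 to 35 in the same order. EIF2AK3 in knockout against wild type on palbociclib ranged from -0.97 to -0.85, and its share of kinase mRNA differed by -3.20 to -2.93 percentage points. The log2 ratio of PPP1R15A to PPP1R15B between knockout and wild-type cells on palbociclib ranged from -0.0405 to 0.0254 and turned negative without knockout library 3 (-0.0405) and without wild-type palbociclib library 2 (-0.0249). With the replicate block on set numbers, 6 members were called for knockout against wild type on palbociclib in place of 4, EIF2AK4 and EIF2S1 joining, while 6 and 7 were called in the comparisons with vehicle, as without the block. The pathway calls with the block numbered 30, 31 and 38, in place of 28, 25 and 35. Subtracting the neighbours' median moved EIF2AK1 in knockout against wild type on palbociclib to 0.07 and turned EIF2AK4 (-0.06), EIF2S1 (-0.04) and EIF2AK2 (0.04), none of them called there, to the other sign. The cause was not tested.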
